A study of Mus musculus with 6 samples.

Results

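Tuft cell identity and eicosanoid genes were followed in small intestinal crypts of mice that lack or keep the COP9 signalosome subunit CSN8 in the intestinal epithelium. The group holds 10 genes chosen by name as tuft cell identity, interleukin 25 or eicosanoid synthesis genes, and all 10 were measured among the 19505 genes with a probe set. Total RNA came from 3 samples of CSN8fl/fl crypts, in which the Cops8 gene is flanked by loxP sites, and 3 of CSN8ΔIEC crypts, in which, as the genotype's name says, it was deleted in intestinal epithelial cells; all were on a C57bl/6 background and each was hybridised to its own Affymetrix array. The sources used here do not give the Cre driver, or say whether the CSN8fl/fl mice also carried Cre. Replicates 1 and 2 of each genotype were labelled female and 16 weeks old, and replicate 3 male and 10 weeks old. The samples are called biological replicates without a statement that each came from a separate mouse, so the p-values measure only how far these samples spread, which may be technical in part.

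Tuft cells are rare chemosensory cells of the intestinal epithelium that depend on the transcription factor POU2F3. They are the epithelial source of interleukin 25, which acts on group 2 innate lymphoid cells; interleukin 13 from these cells in turn raises the number of tuft and goblet cells. Tuft cells also make lipid mediators from arachidonic acid: 5-lipoxygenase and its activating protein start the leukotriene branch, leukotriene C4 synthase makes the cysteinyl leukotrienes, and the hematopoietic prostaglandin D synthase makes prostaglandin D2.

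Several libraries stood apart or went against their labels. The labelled sex was opposite to the Y-linked genes in all 6 samples: Eif2s3y was between 9.61 and 10.10 in the 4 libraries labelled female and at 4.06 and 2.81 in the 2 labelled male, and Kdm5d and Uty split in the same way, so sex and age are given here only as labels. CSN8fl/fl replicate 3 had the lowest Pearson correlations with the other arrays over all genes, from 0.976 to 0.986. The Cops8 signal was 8.26, 8.22 and 8.10 in CSN8fl/fl and 7.68, 7.61 and 7.77 in CSN8ΔIEC, a log2 difference of −0.50 ± 0.11 (SE) that missed the threshold of an adjusted p of 0.05 (limma, adjusted p = 0.0865); the sources used here do not say whether its probes lie in the deleted part. General epithelial genes such as Epcam, Cdh1 and Vil1 were bright in every library (mean log2 signal over the 6 genes from 12.4 to 12.5), and 0 of 6 differed between genotypes (0 of 6 at an unadjusted p under 0.05).

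Promoter windows are shown for 3 members, the 2 with the largest differences, Siglecf and Dclk1, and Hpgds, since POU2F3 belongs to a family of factors that bind the octamer ATGCAAAT. The sequences are RefSeq's, build GRCm38.p6, 5′ to 3′ on the gene's own strand, and end 1 base before the annotated start; 6 of the 10 members had a window, Dclk1 with 2. Capitals mark the octamer.
Hpgds (chr6:65144731-65144980, minus strand): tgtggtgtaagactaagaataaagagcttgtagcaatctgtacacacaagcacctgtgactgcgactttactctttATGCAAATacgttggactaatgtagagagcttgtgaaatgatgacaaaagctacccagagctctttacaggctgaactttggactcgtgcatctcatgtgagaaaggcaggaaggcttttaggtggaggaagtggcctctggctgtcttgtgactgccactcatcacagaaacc
Siglecf (chr7:43351091-43351340, plus strand): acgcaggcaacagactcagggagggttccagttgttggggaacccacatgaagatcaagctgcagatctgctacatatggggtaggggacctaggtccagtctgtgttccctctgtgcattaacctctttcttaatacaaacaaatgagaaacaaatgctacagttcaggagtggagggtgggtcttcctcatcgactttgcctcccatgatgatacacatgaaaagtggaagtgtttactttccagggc
Dclk1 (chr3:55242114-55242363, plus strand): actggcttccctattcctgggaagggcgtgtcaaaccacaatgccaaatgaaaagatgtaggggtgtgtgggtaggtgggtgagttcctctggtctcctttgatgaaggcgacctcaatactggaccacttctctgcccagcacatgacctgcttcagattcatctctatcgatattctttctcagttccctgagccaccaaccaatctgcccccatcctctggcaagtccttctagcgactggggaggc
Dclk1 (chr3:55461478-55461727, plus strand): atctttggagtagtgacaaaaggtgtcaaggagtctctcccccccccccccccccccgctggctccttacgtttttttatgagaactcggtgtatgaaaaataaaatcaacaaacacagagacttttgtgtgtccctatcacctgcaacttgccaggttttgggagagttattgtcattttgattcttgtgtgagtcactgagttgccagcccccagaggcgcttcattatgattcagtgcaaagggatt
The octamer was searched on both strands of the 250 bases before each start. Among the 7 windows of Gfi1b, Dclk1, Hpgds, Siglecf, Avil and Ltc4s, 1 held it, that of Hpgds, where it begins 174 bases before the start on the gene's strand (chr6:65144897-65144904). Of all 32851 windows, 526 or 1.6% held it. A match is only a match of letters, and its absence says only that these letters are not in these windows.

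In CSN8ΔIEC crypts the tuft cell genes were lower. Of the 10, 4 fell past the threshold of an adjusted p of 0.05 and 0 rose, where 0.702% of all 19505 genes fell: Siglecf fell 8.69-fold, Dclk1 6.58-fold, Pou2f3 3.23-fold and Cd24a 1.91-fold. All 10 differences were below 0, against 51.8% of all genes, and their median was −0.83, against −0.011 over all genes. In 7 members every CSN8ΔIEC value lay below every CSN8fl/fl value, against 11.7% of all genes. In bulk crypt RNA, fewer tuft cells and less of these RNAs per tuft cell cannot be told apart.

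The log2 differences of the 10 ran from −3.12 for Siglecf to −0.22 for Gfi1b, and were not tested against each other. The CSN8fl/fl replicate 3 array gave the highest signal of the 6 for all 10 members, where it did so for 23.8% of all genes. Without that array, 4 of the 10 fell (0.528% of all genes), the median was −0.69 and the same 7 members had every CSN8ΔIEC value below every CSN8fl/fl value, as did 16.8% of all genes. These 4 were Siglecf, Dclk1, Pou2f3 and Hpgds. When CSN8fl/fl replicate 1 was left out instead, 5 fell (0.718% of all genes). Dclk1 alone fell when CSN8fl/fl replicate 2 was left out (0.333% of all genes), and likewise for CSN8ΔIEC replicate 2 (0.395%) and for CSN8ΔIEC replicate 3 (0.395%). Leaving out CSN8ΔIEC replicate 1 left 0 members past the threshold, where 0.128% of all genes fell. In that fit 6 members had an unadjusted p under 0.05 (limma), and the share of all genes that did is not given here. Over all 6 arrays, 8 of the 10 members and 2918 of all 19505 genes had an unadjusted p under 0.05. The unadjusted counts of the gene lists are to be read beside that share of all genes.

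**Figure D1:**
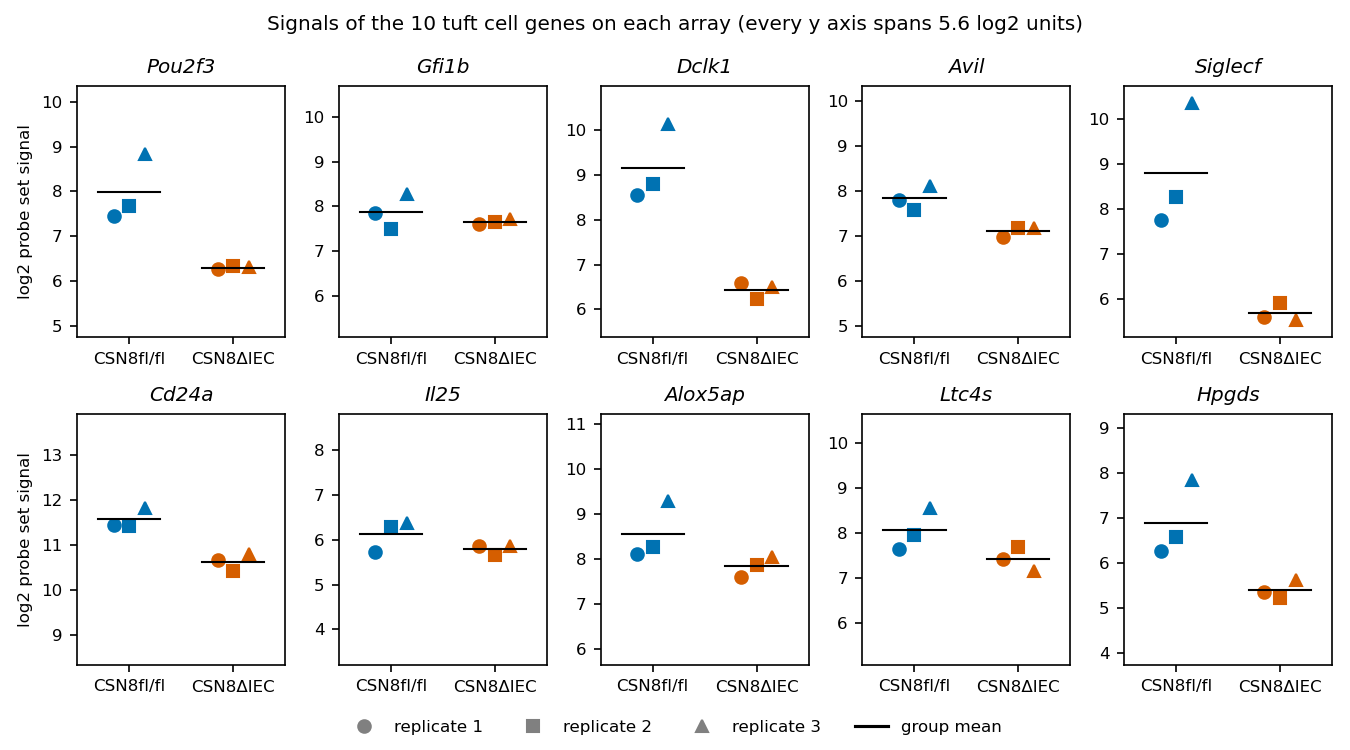
Log2 probe set signal of each of the 10 tuft cell genes (y axes, all of the same span) in the 3 CSN8fl/fl and 3 CSN8ΔIEC arrays, with symbols for the replicate number and a line at the group mean. CSN8fl/fl replicate 3 is the highest point in every panel, and the genotypes overlap for Gfi1b, Il25 and Ltc4s.

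Pou2f3, the transcription factor that tuft cells require, had log2 signals of 7.46, 7.68 and 8.84 in CSN8fl/fl and of 6.26, 6.33 and 6.32 in CSN8ΔIEC, listed in the order of the replicate numbers, as for every gene. The CSN8ΔIEC arrays were almost level, all below the lowest CSN8fl/fl array by at least 1.13, while the CSN8fl/fl arrays spread over 1.38. The log2 difference was −1.69 ± 0.31 (SE, n = 3 in each group; limma, adjusted p = 0.042). It was −1.27 ± 0.12, or 2.41-fold, without CSN8fl/fl replicate 3 (adjusted p = 0.00842). Pou2f3 did not pass without CSN8fl/fl replicate 2 or any 1 CSN8ΔIEC array (adjusted p from 0.0804 to 0.157).

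Gfi1b, a zinc finger transcription factor found in tuft cells as well as in blood cell precursors, went from 7.86, 7.49 and 8.28 in CSN8fl/fl to 7.60, 7.65 and 7.71 in CSN8ΔIEC. All 3 CSN8ΔIEC values lay inside the CSN8fl/fl range. Its difference of −0.22 ± 0.19 did not pass (limma, adjusted p = 0.623), and without CSN8fl/fl replicate 3 it was −0.0177 ± 0.14 (adjusted p = 0.972). Of the 2 transcription factors only Pou2f3 passed; whether they differ from each other was not tested.

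Dclk1 encodes a doublecortin-like kinase bound to microtubules and is the usual marker of intestinal tuft cells. Its signals were 8.54, 8.80 and 10.13 in CSN8fl/fl and 6.59, 6.23 and 6.49 in CSN8ΔIEC. The groups were 1.95 apart at their nearest values, the widest gap of the 10 members. The difference was −2.72 ± 0.36 (limma, adjusted p = 0.0128) and, without CSN8fl/fl replicate 3, −2.23 ± 0.15, or 4.69-fold (adjusted p = 0.00449). Dclk1 passed without each array in turn except CSN8ΔIEC replicate 1 (adjusted p = 0.0558).

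Siglecf, a sialic acid-binding receptor known from eosinophils and also carried by intestinal tuft cells, was at 7.76, 8.26 and 10.36 in CSN8fl/fl and at 5.60, 5.90 and 5.52 in CSN8ΔIEC. The highest CSN8fl/fl array was 2.35 above the mean of the other two, the largest such gap among the 10, and the groups still did not overlap without it. The difference was −3.12 ± 0.55 (limma, adjusted p = 0.0373). It was −2.34 ± 0.18 without CSN8fl/fl replicate 3, or 5.05-fold in place of 8.69-fold (adjusted p = 0.00586). Siglecf did not pass without CSN8fl/fl replicate 2 or any 1 CSN8ΔIEC array (adjusted p from 0.076 to 0.15).

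Markers of eosinophils, the other cells known for Siglecf, were dim. The mean log2 signal of the 6 measured eosinophil markers was from 4.58 to 4.87 in CSN8fl/fl and from 4.42 to 4.53 in CSN8ΔIEC. Their median difference was −0.22, with 0 of 6 past the threshold (0 of 6 at an unadjusted p under 0.05). All 6 differences were below 0, as were those of 51.8% of all genes, and the median was −0.29 without CSN8fl/fl replicate 3. Ear6, an eosinophil ribonuclease gene, differed by −0.27 ± 0.14 (limma, adjusted p = 0.407). Of the defining granule genes, Prg2, chosen after its values were seen, was between 5.14 and 5.83 and Epx between 4.65 and 5.42 over the 6 arrays. In CSN8fl/fl replicate 3, where Siglecf was highest, 2 of the 6 markers (Ear6 and Alox15) were at their highest and Epx at its lowest. The part of eosinophils in the Siglecf difference was not tested. The array files carry no detection call, so whether these markers were above background is not known here.

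Avil, which encodes the actin-binding protein advillin, a marker of tuft cells and sensory neurons, was at 7.80, 7.59 and 8.11 in CSN8fl/fl and at 6.98, 7.19 and 7.17 in CSN8ΔIEC. The groups were separate by 0.40. The difference of −0.72 ± 0.15 did not pass (limma, adjusted p = 0.0714), nor did it without any 1 array (adjusted p from 0.0717 to 0.273). With dim genes filtered out, adjusted p was 0.0417.

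Cd24a, a membrane glycoprotein used to sort tuft, Paneth and enteroendocrine cells, had the tightest CSN8fl/fl values of the 10. They were 11.44, 11.43 and 11.82, against 10.67, 10.43 and 10.80 in CSN8ΔIEC, with no overlap. The difference was −0.93 ± 0.15 (limma, adjusted p = 0.0292). Leaving out CSN8fl/fl replicate 1 kept the call (adjusted p = 0.0467), and it was lost without any other single array (adjusted p from 0.062 to 0.124), with −0.80 ± 0.14 without CSN8fl/fl replicate 3. Beside it, 8 of 11 Paneth cell markers fell and 0 rose (median −1.84), where 0.702% of all genes fell. Without CSN8ΔIEC replicate 1, 2 fell (0.128% of all genes), and without any other array from 6 to 8 did (0.333% to 0.718%). The mean signals of the 11 markers were from 12.1 to 12.2 in CSN8fl/fl and from 10.0 to 11.0 in CSN8ΔIEC. Among them the angiogenin Ang4, an antimicrobial Paneth cell product, differed by −1.84 ± 0.21 (limma, adjusted p = 0.0087) and Clps, which encodes colipase, by −3.11 ± 0.36 (adjusted p = 0.00942). The part of Paneth cells in the Cd24a difference was not tested.

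Il25, the cytokine by which tuft cells signal to innate lymphoid cells, was dim on every array, at 5.73, 6.29 and 6.37 in CSN8fl/fl and 5.87, 5.65 and 5.86 in CSN8ΔIEC. The groups overlapped, with CSN8fl/fl replicate 1 inside the CSN8ΔIEC range. Its difference of −0.34 ± 0.18 did not pass (limma, adjusted p = 0.416; −0.22 ± 0.18 without CSN8fl/fl replicate 3, adjusted p = 0.645). Il17rb, a subunit of the interleukin 25 receptor that tuft cells also express, was at 6.14, 6.24 and 7.68 in CSN8fl/fl and 4.99, 5.10 and 5.54 in CSN8ΔIEC. Its difference of −1.47 ± 0.37 did not pass either (limma, adjusted p = 0.113), though the groups did not overlap, and it was chosen after its values were seen.

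Of the 13 measured genes of the type 2 cytokine circuit, which holds the interleukins and receptors through which tuft cell signals act, 0 fell and 0 rose (limma; 1 at an unadjusted p under 0.05). The median difference was −0.082. Retnlb, a goblet cell product raised by interleukin 13, was at 6.05, 9.07 and 9.73 in CSN8fl/fl and between 5.53 and 6.00 in CSN8ΔIEC, with a difference of −2.47 ± 0.77 (adjusted p = 0.188); it passed without CSN8fl/fl replicate 1, its lowest control (adjusted p = 0.00274), alone among the single arrays. Il33, an epithelial alarmin, differed by −0.71 ± 0.32, Il4 by −0.27 ± 0.15 and Il7r by 0.23 ± 0.21 (adjusted p from 0.343 to 0.653). Interleukin 13 itself stayed between 6.64 and 6.90 on all 6 arrays, and the receptor chain Il13ra1 between 10.45 and 10.92; both were chosen after their values were seen.

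Among the eicosanoid members, Alox5ap encodes the protein that presents arachidonic acid to 5-lipoxygenase. Its signals were 8.11, 8.26 and 9.28 in CSN8fl/fl and 7.59, 7.87 and 8.04 in CSN8ΔIEC. The groups were separate by only 0.07. The difference of −0.71 ± 0.28 did not pass (limma, adjusted p = 0.282) and was −0.35 ± 0.16 without CSN8fl/fl replicate 3 (adjusted p = 0.389).

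Ltc4s, which joins glutathione to leukotriene A4, was at 7.65, 7.96 and 8.56 in CSN8fl/fl and at 7.43, 7.68 and 7.16 in CSN8ΔIEC. CSN8ΔIEC replicate 2 lay above CSN8fl/fl replicate 1 by 0.03, so the groups overlapped. The difference of −0.63 ± 0.23 did not pass (limma, adjusted p = 0.253; −0.38 ± 0.18 without CSN8fl/fl replicate 3, adjusted p = 0.414).

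Hpgds, the glutathione-dependent prostaglandin D2 synthase, differed most of the eicosanoid members. It was at 6.26, 6.58 and 7.84 in CSN8fl/fl and at 5.34, 5.21 and 5.62 in CSN8ΔIEC, with 0.65 between the nearest values. The difference was −1.51 ± 0.35, or 2.85-fold, and did not pass over all 6 arrays (limma, adjusted p = 0.0927). It passed once CSN8fl/fl replicate 3 was left out, at −1.04 ± 0.16 (adjusted p = 0.0433), or CSN8fl/fl replicate 1 (adjusted p = 0.0484), with labelled sex and age as a covariate (adjusted p = 0.0227) and with the replicate number as a block (adjusted p = 0.038). It did not without any other single array (adjusted p from 0.143 to 0.282).

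**Figure D2:**
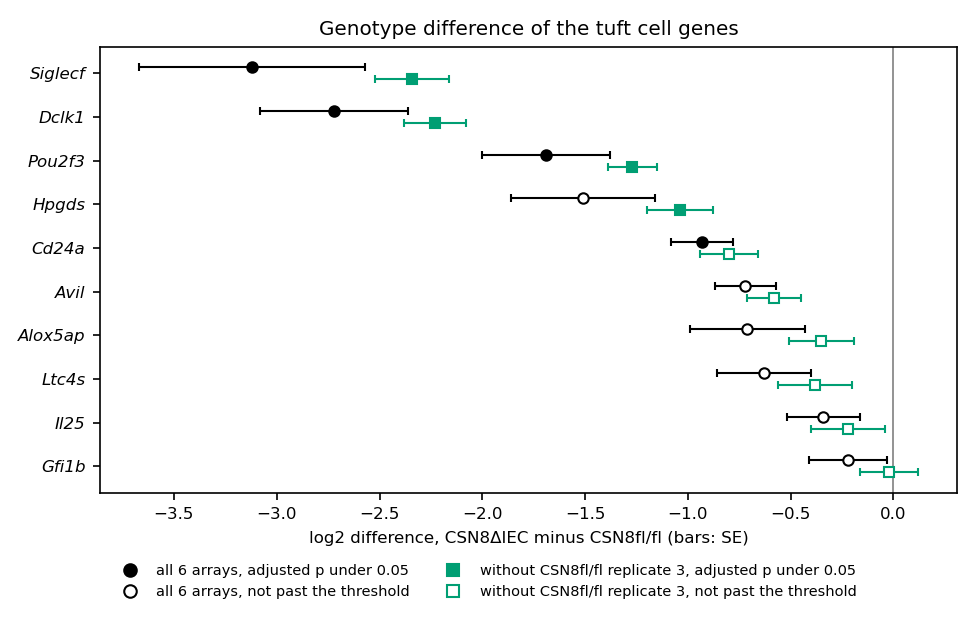
Log2 difference of each member, CSN8ΔIEC minus CSN8fl/fl (x axis), with bars of 1 SE, over all 6 arrays (circles) and without CSN8fl/fl replicate 3 (squares); filled symbols passed an adjusted p of 0.05. Every difference is nearer to 0 without that array, from −0.02 for Gfi1b to −2.34 for Siglecf, and Hpgds is filled only there while Cd24a is filled only with all arrays.

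Alox5ap, Ltc4s and Hpgds are also known from mast cells and macrophages. The mean log2 signal of the 10 mast cell markers was from 5.12 to 5.44 in CSN8fl/fl and from 5.05 to 5.10 in CSN8ΔIEC, with 0 of 10 past the threshold (limma; 2 at an unadjusted p under 0.05) and a median of −0.17; Kit, which is not restricted to mast cells, had the smallest p, with −1.18 ± 0.26 (adjusted p = 0.079), and the chymase Cma1 differed by −0.43 ± 0.17 and the tryptase Tpsb2 by −0.29 ± 0.14 (adjusted p = 0.285 and 0.369). The mast cell protease Mcpt2 lay the other way, at 0.34 ± 0.19 (limma, adjusted p = 0.444), and so did Mcpt1, at 0.42 ± 0.31 (adjusted p = 0.568), which was chosen after its values were seen. The mean of the 14 macrophage and myeloid markers was from 5.99 to 6.14 and from 5.90 to 6.10. Of these, 0 of 14 passed the threshold (limma, 4 at an unadjusted p under 0.05), 7 had a difference below 0 and the median was −0.067. Lyz2, bright at 11.35 to 12.91, and Cd14 lay opposite ways, at −0.72 ± 0.25 and 0.75 ± 0.28 (adjusted p = 0.226 and 0.263). The part of these cells in the 3 differences was not tested. Of all 19505 genes, 2918 had an unadjusted p under 0.05 (limma).

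The rest of the eicosanoid pathway did not follow the tuft cell members as a whole. Of 35 further enzymes and transporters measured, 3 rose, where 0.374% of all genes did, and 0 fell. The medians were 0.012 over the 16 genes of arachidonate release and prostaglandin synthesis and −0.084 over the 19 of the leukotriene and lipoxygenase list. Differences were below 0 for 8 of the 16 and 13 of the 19. Ptgs2, chosen after its values were seen, was at 5.08, 4.90 and 6.93 against 4.73, 4.44 and 4.92 (−0.94 ± 0.46, limma, adjusted p = 0.384). The 3 that rose act on mediators already made, or export them. Cbr1, a carbonyl reductase that also reduces prostaglandins, went from 10.12, 10.35 and 10.34 to 11.53, 11.35 and 11.23, a log2 difference of 1.10 ± 0.13 (limma, adjusted p = 0.00996). Ptgr1, which inactivates leukotriene B4 and 15-oxo-prostaglandins, went from 9.19, 9.17 and 8.94 to 10.23, 10.07 and 10.14 (1.05 ± 0.12, adjusted p = 0.0095). Abcc1, the transporter that exports leukotriene C4, went from 7.68, 7.52 and 7.41 to 8.46, 8.20 and 8.59 (0.88 ± 0.14, adjusted p = 0.0261).

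In each of these 3 genes, every CSN8ΔIEC array was above every CSN8fl/fl array, as in 10.7% of all genes, and the reverse of Alox5ap and Hpgds. Cbr1 and Ptgr1 passed without each array in turn except CSN8ΔIEC replicate 1 (adjusted p = 0.0535 for both). Abcc1 passed only without CSN8fl/fl replicate 1 or CSN8ΔIEC replicate 2, and otherwise had adjusted p-values from 0.0665 to 0.127.

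Among the enzymes that feed the members, Alox5, the 5-lipoxygenase that Alox5ap serves, was at 6.98, 6.86 and 8.76 in CSN8fl/fl and at 6.23, 5.87 and 5.97 in CSN8ΔIEC, with no overlap. Its difference of −1.51 ± 0.43 did not pass (limma, adjusted p = 0.157), and passed at −0.89 without CSN8fl/fl replicate 3 (adjusted p = 0.0433). Pla2g4c, a cytosolic phospholipase A2, had the lowest difference of the list, −3.81 ± 0.87, with widely spread values of 11.72, 13.41 and 13.82 against 7.21, 11.05 and 9.28 (adjusted p = 0.0882); with 1 array left out it passed only without CSN8ΔIEC replicate 2 (adjusted p = 0.0374). Pla2g4a, the phospholipase that releases arachidonic acid in most cells, lay between 7.76 and 7.98 on all 6 arrays, and Lta4h, the leukotriene A4 hydrolase that makes leukotriene B4, between 10.97 and 11.17; both were chosen after their values were seen. The microsomal glutathione transferases Mgst1 and Mgst2, relatives of Ltc4s, differed by 0.66 ± 0.14 and 0.43 ± 0.12 (adjusted p = 0.0784 and 0.156), and Abcc4, a prostaglandin exporter, by 0.54 ± 0.16 (adjusted p = 0.159).

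Receptors for the mediators were mostly dim and 0 of 13 differed (limma, 1 at an unadjusted p under 0.05, where 2918 of all 19505 genes were). Their median was −0.019. Ptgdr, a prostaglandin D2 receptor, was at 4.85, 4.41 and 4.85 in CSN8fl/fl and 5.22, 5.13 and 5.10 in CSN8ΔIEC, a difference of 0.44 ± 0.15 (adjusted p = 0.208). The others with the smallest p were Ptger2, at −0.40 ± 0.21, Ptger3, at 0.25 ± 0.15, and Ltb4r1, at −0.13 ± 0.12 (adjusted p from 0.407 to 0.651).

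**Figure D3:**
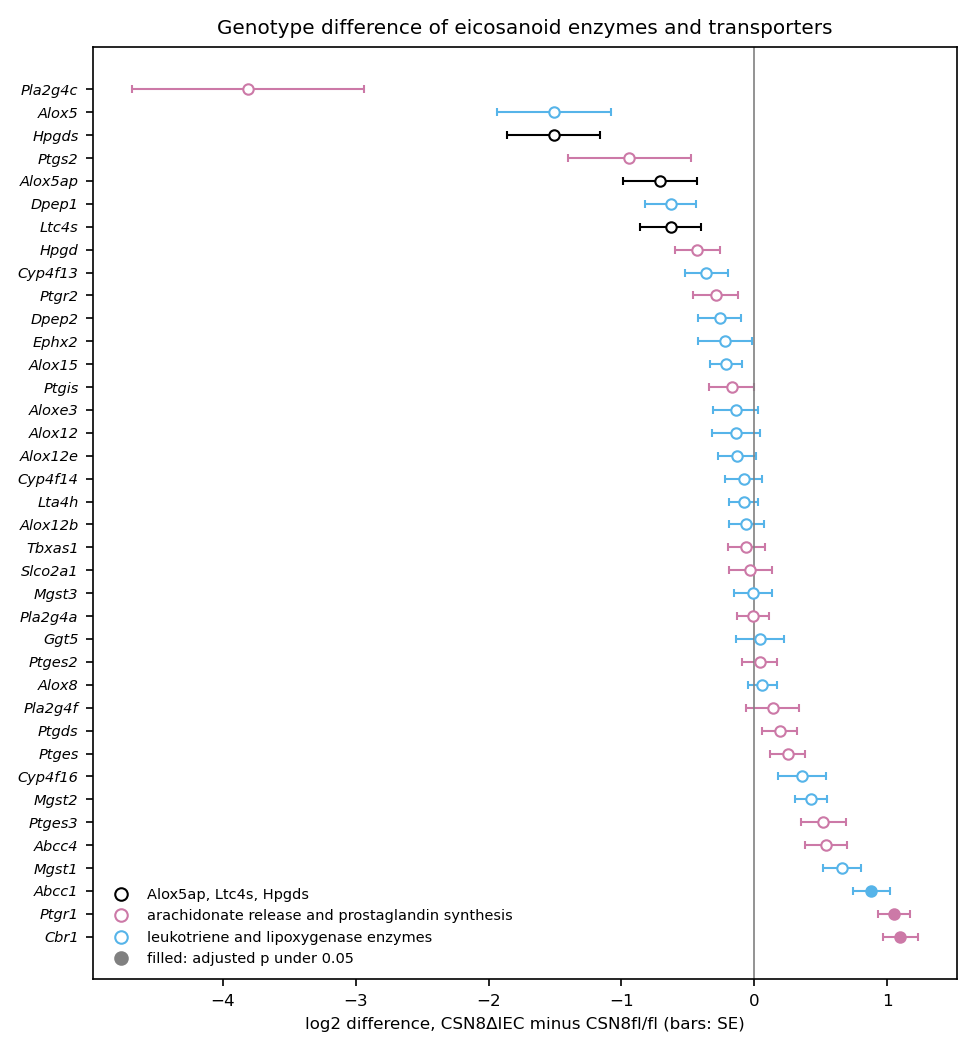
Log2 difference, CSN8ΔIEC minus CSN8fl/fl, with bars of 1 SE, for Alox5ap, Ltc4s and Hpgds (black) and 35 other eicosanoid enzymes and transporters (colours by list) over all 6 arrays; filled symbols passed an adjusted p of 0.05. The filled symbols Cbr1, Ptgr1 and Abcc1 lie to the right of 0, and Hpgds, Alox5ap, Ltc4s, Alox5 and Ptgs2 to the left. Pla2g4c lies furthest to the left.

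Other tuft cell identity genes were lower in CSN8ΔIEC as well. Of 29 measured, 4 fell and 0 rose, against 0.702% and 0.374% of all genes, and the median was −0.90. All 29 differences were below 0, with Sox9 or Krt18, both near 0, turning above 0 under some scalings or without some arrays (27 below 0 at the fewest). In 22 every CSN8ΔIEC value lay below every CSN8fl/fl value, against 11.7% of all genes. Rgs13, a regulator of G protein signalling, fell 9.04-fold, from 8.32, 8.48 and 10.24 to 5.49, 5.72 and 6.29 (log2 difference −3.18 ± 0.45; limma, adjusted p = 0.0176). The succinate receptor Sucnr1 (−2.66 ± 0.49, adjusted p = 0.0427), the kinase Bmx (−2.46 ± 0.45, adjusted p = 0.042) and the ETS factor Spib (−1.92 ± 0.30, adjusted p = 0.0258) fell as well. Krt18 and Sox9, which other epithelial cells also express, differed by −0.03 and −0.01 and were chosen after their values were seen.

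This count too rested on single arrays. It was 7 when CSN8fl/fl replicate 1 or 3 was left out (0.718% and 0.528% of all genes fell), 1 for CSN8fl/fl replicate 2 or CSN8ΔIEC replicate 3 (0.333% and 0.395%), and 0 for CSN8ΔIEC replicate 1 or 2 (0.128% and 0.395%). The median was −0.54 without CSN8fl/fl replicate 3. Without that array the falls were 5.92-fold for Rgs13, 3.91-fold for Sucnr1, 3.64-fold for Bmx and 2.91-fold for Spib. Spib, Bmx and Sucnr1 passed only without CSN8fl/fl replicate 1 or 3 (otherwise adjusted p from 0.0579 to 0.169), and the call of Rgs13 was lost when CSN8ΔIEC replicate 1 or 2 was left out (adjusted p = 0.0883 and 0.0567). In the taste signalling cascade of tuft cells, 0 of 9 passed, with a median of −0.34. At an unadjusted p under 0.05 (limma) were 4 of the 9, and 2918 of all 19505 genes. The cascade's cation channel Trpm5 differed by −2.27 ± 0.45 (adjusted p = 0.0576), and Trpm5 and the gustducin subunit Gnat3 fell without CSN8fl/fl replicate 3 (adjusted p = 0.0161 and 0.0413).

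Array by array, the 10 members lay close to the other tuft cell genes. Relative to each gene's mean over the 6 arrays, the median of the 10 was 0.22, 0.33 and 0.95 in CSN8fl/fl and −0.55, −0.49 and −0.41 in CSN8ΔIEC. That of the other 29 was 0.06, 0.22 and 1.21, and −0.54, −0.43 and −0.41. In CSN8fl/fl replicate 3 the proliferation genes were at −0.76, the stem cell markers at −0.47 and the enteroendocrine markers at −0.29, each the lowest of the 6 arrays. The Paneth cell markers were at 0.93, the enterocyte markers at 0.31 and the lymphocyte markers at 0.29, each the highest of the 6. The goblet cell markers (0.24) and mast cell markers (0.23) were highest in that array too. Of the 11 lymphocyte markers, 5 were highest there, among them the T cell genes Cd3e and Cd8a, while the B cell genes Cd79a, Cd79b and Jchain were lowest there. Between genotypes 0 of the 11 passed, with a median of −0.22. At an unadjusted p under 0.05 (limma) were 2 of the 11, and 2918 of all 19505 genes. Without CSN8fl/fl replicate 3, Ms4a1 and Cd79a, both B cell genes, fell, where 0.528% of all genes did, and the median of the 11 was 0.017. Jchain, which had the smallest p of the 11 over all arrays, lay the other way. Its difference was 1.51 ± 0.46 (limma, adjusted p = 0.181), and 0.94 ± 0.31 without that array (adjusted p = 0.256). The list of other tuft cell genes holds genes that leukocytes also express, such as Ptprc, Vav1 and Rac2, which were highest in CSN8fl/fl replicate 3 as well. The part of this make-up in the tuft cell values of that array was not tested.

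**Figure D4:**
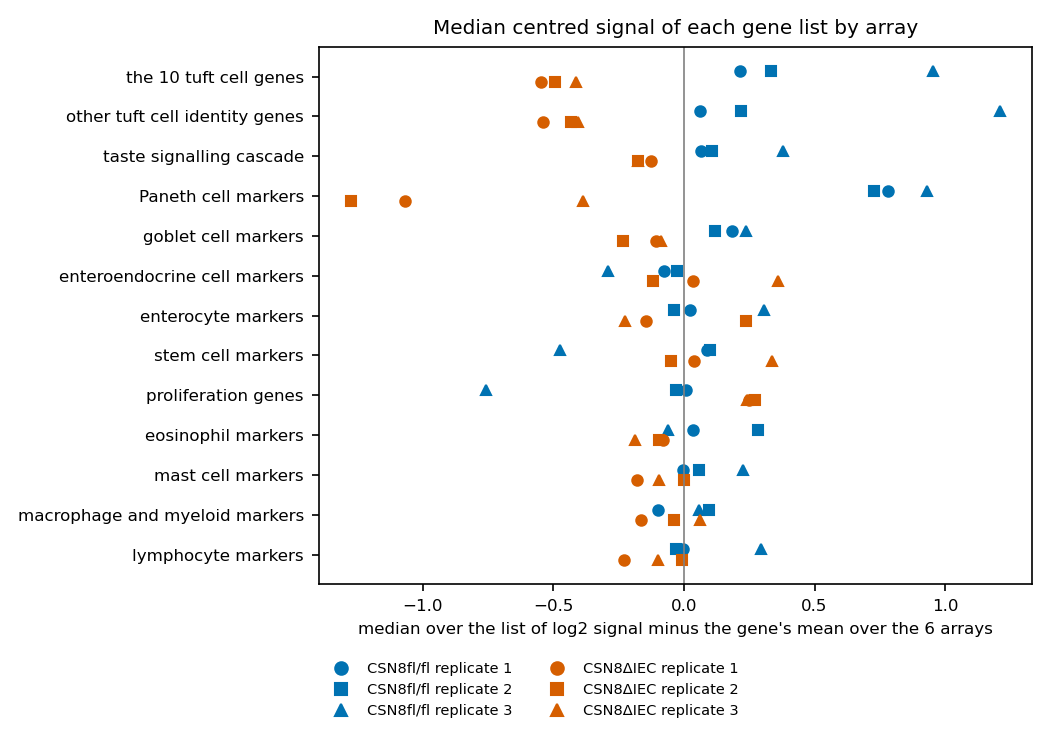
Median over each gene list of the log2 signal minus the gene's mean over the 6 arrays (x axis), 1 symbol per array, with colour for genotype and shape for replicate number. The 10 tuft cell genes run from −0.55 to 0.95 with the genotypes apart. CSN8fl/fl replicate 3 is highest for both tuft cell lists and the taste cascade, and also for the Paneth, goblet, enterocyte, mast cell and lymphocyte lists. It is lowest for enteroendocrine and stem cell markers and proliferation genes.

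Other secretory cells differed in part with the tuft cell genes. Beside the Paneth cell markers, 2 of 9 goblet cell markers fell, where 0.702% of all genes did, with a median of −0.30. They were Clca1 and Tff3 (−0.80 ± 0.13 and −0.65 ± 0.12, limma, adjusted p = 0.0284 and 0.042). Without CSN8fl/fl replicate 1, 1 fell (0.718% of all genes), and 0 did without any other single array (0.128% to 0.528%). Of 9 enteroendocrine markers, the hormone genes Tac1 and Cck rose and Sst fell (1.41 ± 0.20, 0.79 ± 0.15 and −1.10 ± 0.15), with a median of 0.22. Of all genes 0.374% rose and 0.702% fell. Without single arrays 1 or 2 of the markers rose and 0 or 1 fell, where from 0.128% to 0.718% of all genes fell. The share of all genes that rose in these fits is not given here. The tuft cell median of −0.83 lay between those of the Paneth and goblet cell lists, and the lists were not tested against each other.

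The labelled sexes were set side by side, since each genotype had 2 arrays labelled female and 1 labelled male. All 10 members had a larger difference in the labelled male pair, and the share of all genes that did is not given here. That pair holds CSN8fl/fl replicate 3, which gave the highest signal for all 10, so the count largely restates that array. Siglecf differed by −2.26 in the labelled females and −4.85 in the labelled males, Dclk1 by −2.26 and −3.64, Pou2f3 by −1.28 and −2.52, Hpgds by −1.15 and −2.22, and Ltc4s by −0.25 and −1.40. The labelled male CSN8fl/fl library is the array that stood apart, so label and array cannot be told apart. With 1 labelled male array per genotype, an interaction model takes its spread from the labelled females alone. Such a model cannot decide whether the labelled sexes differ, so only effect sizes are given.

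The genes whose 6 values lay nearest to the median profile of the members were Flrt3, Map3k13, Sp4, Fcgrt, Cideb, Rab37, Mlph and Ifi27l2a. Nearness was the root-mean-square difference between the centred log2 values over the 6 arrays, from 0.10 for Flrt3 to 0.119 for Ifi27l2a. Fcgrt, the neonatal Fc receptor, was at 9.98, 10.14 and 10.43 in CSN8fl/fl and 9.19, 9.17 and 9.21 in CSN8ΔIEC, and Flrt3 at 7.70, 7.99 and 8.63 against 7.26, 7.23 and 7.23. Nearest to Dclk1 were Sucnr1 (0.254), Bmx (0.328), C4bp (0.347) and Pik3cg (0.355). Pik3cg, a phosphoinositide 3-kinase catalytic subunit, had a mean of 8.65 ± 0.98 (SD, n = 3) in CSN8fl/fl and 6.57 ± 0.035 in CSN8ΔIEC, and like Dclk1 was highest in CSN8fl/fl replicate 3. C4bp, which encodes a complement regulator, was at 7.32, 6.94 and 7.98 against 4.91, 5.01 and 5.15. These genes were picked for their likeness over the same arrays, so their differences are a description.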

How the data were processed

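The authors deposited log2 probe set signals of 6 Affymetrix arrays; RMA and Partek 6.6 are named in the submitters' processing notes, with roles and settings not given in the sources used here. RMA subtracts background, equalises the arrays and summarises probes, which compresses differences of dim genes. The 22206 probe sets were named from GEO's platform annotation: 19572 carried 1 symbol, 0 several and 2634 are unnamed here. The brightest probe set stood for each of 55 genes that had several, which left 19505 genes. Array medians differed by at most 0.0577.

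Genotypes were compared on all 6 arrays by the lmFit and eBayes functions of limma 3.58.1 (R 4.3.3), with Benjamini-Hochberg adjustment over all genes and a threshold of 0.05, and the code was tested on simulated data. A fold is 2 to the power of the log2 difference. Only 3 arrays per genotype limit the precision. Genes were named by a rule: Cops8, all members, the 8 genes nearest to their median profile and the 4 nearest to Dclk1. The rule added up to 4 of each list with the smallest p, and every eicosanoid gene that passed. Exceptions are stated where they occur, apart from the following. Epcam, the Y-linked genes, Cd8a, Cd79a, Cd79b, Ptprc, Vav1 and Rac2 were also named outside the rule. The members and lists were chosen with earlier results of these data known. Arrays left out in turn, filters, scalings, covariates and eBayes settings were the alternatives.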

Additional observations from a re-analysis of the deposited data

How the results depend on the processing

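All 10 differences kept their direction, and the median of the members stayed between −0.96 and −0.69, under every alternative that was run. Of all 19505 genes, 210 passed the threshold, 324 with an intensity trend in eBayes, 97 without replicate 3 of both genotypes and from 41 to 228 without single arrays. Of the members, 4 passed, and from 0 to 5 did without single arrays. Without replicate 3 of both genotypes 3 passed (Dclk1, Pou2f3 and Siglecf). A second quantile normalization gave 3 members and 201 of all genes. Using all probe sets, an alternative chosen after seeing the data, gave 3 members and 204 probe sets. Pou2f3 was lost in both. With dim genes filtered out, 5 of 8 passed, Avil being added, as did 311 of the 9886 genes kept. Hpgds and Il25 were not tested there. Same-numbered samples shared labelled sex and age, and their deviations from the group means correlated weakly over all genes (0.117, −0.0243 and 0.0381). Whether replicate numbers pair the samples in another way is not stated in the sources used here. With the replicate number as a block 202 genes and 5 members passed, Hpgds being added. Labelled sex and age as a covariate also gave 5 members, and 225 of all genes. Single-array fits assume that the smaller group varies like the larger. Without detection calls, whether dim genes such as Il25 exceeded background is not known.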
